A study of Mus musculus with 9 samples.

Results

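The aryl hydrocarbon receptor (AhR) pathway was followed in Th17 cultures through 7 genes. These were Ahr, the receptor, Arnt, its DNA-binding partner, Ahrr and Tiparp, which restrain the receptor, and Cyp1a1, Cyp1b1 and Nqo1, which encode enzymes that the receptor is known to induce. They were chosen by name, and all 7 were measured among 22180 genes with a single gene symbol on the array. Where a gene had several probe sets, the brightest was used. Expression is given as the log2 intensity of that probe set.

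The cultures came from SRG3 conditional knockout (SRG3 cKO), RORγt knockout (RORγt KO) and wild-type (WT) mice, with 3 arrays each and 9 in all. Smarcc1 encodes SRG3, a scaffold protein of Swi/Snf complexes, which use ATP to move nucleosomes, while RORγt is the lineage-defining nuclear receptor of Th17 cells. Naive splenic CD4 T cells, sorted as CD25-negative, CD44-low and CD62L-high, were stimulated in every genotype for 60 h on plate-bound anti-CD3 and anti-CD28 (10 µg/ml each) in IMDM with 10% serum. All received TGF-β1 (1 ng/ml), IL-6 (30 µg/ml as written in the labels) and blocking antibodies against IL-4 and against IFN-γ, each at 2 µg/ml, and the labels list no added AhR ligand. The alleles, the Cre driver of the conditional knockout, the ages of the mice and the number of mice behind each array are not given in the sources used here. The arrays of a genotype are called biological replicates there, with no statement of separate mice or cultures, so the p-values here speak only of how far these arrays spread.

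AhR is a ligand-activated transcription factor of the bHLH-PAS family. Without ligand it is held in the cytosol by HSP90 and cochaperones. With ligand it enters the nucleus, pairs with ARNT and binds xenobiotic response elements (XREs), whose core reads GCGTG. Ligands include pollutants such as dioxins and products of tryptophan, and IMDM is known to hold more tryptophan-derived agonists than other common media. Among helper T cells Ahr is characteristic of Th17 cells, where the receptor is known to support IL-22 production.

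Array medians lay between 7.12 and 7.14. Smarcc1 stood at 8.47, 8.79 and 8.62 in SRG3 cKO arrays, against 10.13, 10.32 and 10.39 in WT arrays, and the gene for RORγt was not analysed here. The 5 measured markers of CD4 T cells were all above the median of all values. Of 19 measured markers of CD8 T cells, B cells, myeloid cells, NK and γδ T cells, and innate lymphoid and epithelial cells, 0 passed the limma test in any comparison. The mean log2 level of the 6 myeloid markers was 6.60 to 6.67 in SRG3 cKO, 6.65 to 6.66 in RORγt KO and 6.60 to 6.64 in WT arrays, with 0 of 6 above the median of all values. Above that median lay 2 of 2 markers of CD8 T cells and 3 of 4 of B cells. So did 0 of 3 markers of NK and γδ T cells and 2 of 4 of innate lymphoid and epithelial cells. Whether such cells were present was not tested. The mean level of the 5 measured Th17 markers was 9.43 to 9.61 in SRG3 cKO, 8.34 to 8.59 in RORγt KO and 10.03 to 10.35 in WT arrays, and its part in the differences of the AhR genes was not tested. In RNA from whole cultures, fewer cells that express a gene and less of its RNA per cell cannot be told apart.

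The search for XREs was limited to the 250 bases before the start of each gene, and sites farther away were not searched. The RefSeq promoter table (build GRCm38.p6) held 6 of the 7 genes, all but Ahr, and the 250 bases before each start were searched on both strands for GCGTG. The core was found in 5 of these 6 windows, 7 times in all, and in 28.2% of 27025 windows of the same length. The members' windows held 53.2% to 75.2% G and C, and the 27025 windows were not matched for this, so no enrichment is claimed. The windows of the feedback genes and of the 2 cytochrome genes are shown because they are the receptor's best known targets, with each match in capitals (GCGTG, or CACGC where it lies on the other strand).
Ahrr (chr13:74292332-74292581, minus strand): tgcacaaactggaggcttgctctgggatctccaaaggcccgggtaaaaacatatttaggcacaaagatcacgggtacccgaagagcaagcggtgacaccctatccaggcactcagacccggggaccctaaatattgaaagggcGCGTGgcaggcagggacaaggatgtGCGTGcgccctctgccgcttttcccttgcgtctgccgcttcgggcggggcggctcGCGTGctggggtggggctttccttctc
Tiparp (chr3:65528197-65528446, plus strand): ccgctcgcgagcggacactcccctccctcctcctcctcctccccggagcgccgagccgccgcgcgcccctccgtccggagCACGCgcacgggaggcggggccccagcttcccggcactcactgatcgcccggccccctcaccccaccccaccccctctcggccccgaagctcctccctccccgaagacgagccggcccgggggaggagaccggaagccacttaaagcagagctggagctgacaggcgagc
Cyp1a1 (chr9:57697363-57697612, plus strand): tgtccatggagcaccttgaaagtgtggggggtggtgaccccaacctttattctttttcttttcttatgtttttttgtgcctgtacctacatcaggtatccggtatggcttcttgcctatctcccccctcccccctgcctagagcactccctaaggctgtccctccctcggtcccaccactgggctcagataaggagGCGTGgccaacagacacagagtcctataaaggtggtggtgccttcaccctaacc
Cyp1b1 (chr17:79715062-79715311, minus strand): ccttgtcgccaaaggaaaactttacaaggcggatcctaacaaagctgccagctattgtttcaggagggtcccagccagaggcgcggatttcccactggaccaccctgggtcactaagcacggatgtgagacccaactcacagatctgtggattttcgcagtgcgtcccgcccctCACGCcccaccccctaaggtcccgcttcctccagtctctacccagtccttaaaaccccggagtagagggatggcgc
Ahrr held 3 cores, which begin 107, 82 and 27 bases before the start. The last of them was within the longer form TNGCGTG, which 4.16% of windows held and which was in no other member's window. Tiparp, Cyp1a1 and Cyp1b1 held 1 each, at 170, 54 and 76 bases. Arnt held 1 at 29 bases, and the Nqo1 window held none. The half-site AGGTCA, to which ROR proteins bind, was in 0 of the 6 windows and in 13.8% of all windows. A match is a stretch of letters and not a measured binding site.

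**Figure D1:**
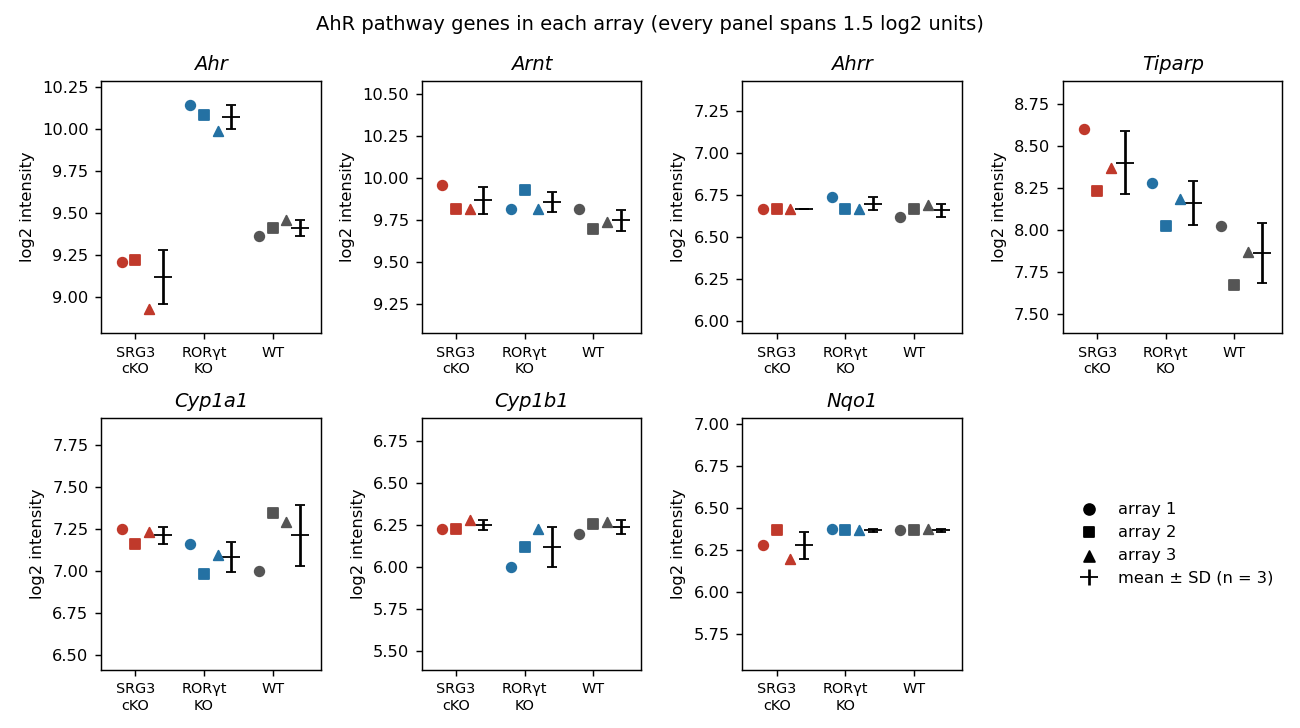
Log2 intensity (y axis) of the 7 genes in each array, by genotype (x axis), with 1 symbol per array number and the mean ± SD (n = 3) beside it, every panel spanning the same range. The Ahr groups do not overlap, with RORγt KO arrays at 9.99 to 10.14, SRG3 cKO arrays at 8.93 to 9.22 and WT arrays at 9.36 to 9.46, while Ahrr and Nqo1 hardly vary.

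Ahr was the member that differed most between the genotypes, and the means of the 2 knockouts lay on opposite sides of WT, past the threshold only for RORγt KO. Its level was 10.14, 10.08 and 9.99 in RORγt KO arrays, against 9.36, 9.41 and 9.46 in WT arrays. Every RORγt KO array was above every WT array, which held for 1 of 7 members and for 6.9% of all genes. Ahr rose 1.58-fold in RORγt KO cells (log2 change 0.66, SE 0.08, 95% confidence interval 0.49 to 0.83, limma adjusted p = 0.00603 over all genes). In that comparison Ahr was 1 of 7 members called, against 1.04% of all genes (0.694% higher). It ranked 30 of 22180 genes by p-value, and 33 among the 154 called rises by size. The call held whichever of the 9 arrays was left out, with limma adjusted p-values of 0.00115 to 0.0409.

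In SRG3 cKO arrays Ahr stood at 9.21, 9.22 and 8.93, against 9.36, 9.41 and 9.46 in WT arrays. All 3 SRG3 cKO arrays were below all 3 WT arrays, with array 3 the lowest. The log2 change was -0.29 (SE 0.08, interval -0.46 to -0.12), which did not pass the test over all genes (limma adjusted p = 0.189). Of the 7 members 0 were called in SRG3 cKO against WT, where 0.523% of all genes were called. By limma's unadjusted p-value 2 members, Ahr and Tiparp, were under 0.05, as were 11.2% of all genes.

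Set against each other, SRG3 cKO cells had 1.93-fold less Ahr than RORγt KO cells (log2 change -0.95, SE 0.08, interval -1.12 to -0.78, limma adjusted p = 0.000568). The means of this comparison leave out WT, but its SE comes from all 9 arrays, and with only the 6 knockout arrays fitted the limma adjusted p was 0.00811. Ahr was 1 of 7 members called there, against 1.28% of all genes (0.681% lower), and it was the 11th largest of the 151 called falls. It was also the 1 member whose SRG3 cKO arrays all lay below the RORγt KO arrays, as did 6.81% of all genes. Genotype means were 9.12 ± 0.16 in SRG3 cKO, 10.07 ± 0.07 in RORγt KO and 9.41 ± 0.05 in WT arrays (SD, n = 3 each), so WT lay in between, and its lower neighbour SRG3 cKO did not differ from it past the threshold.

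**Figure D2:**
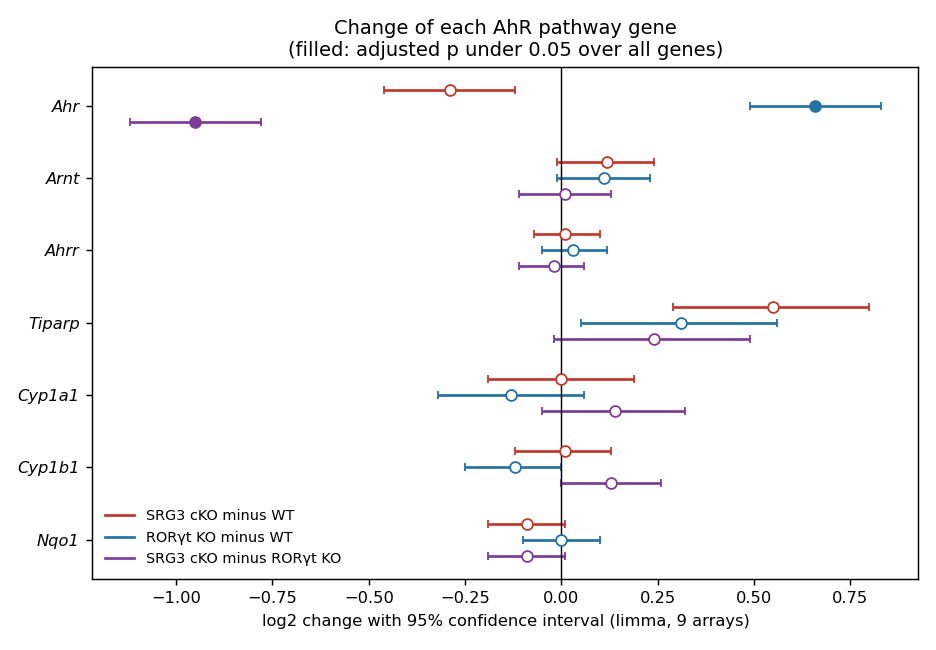
Log2 change of each gene (x axis, with its 95% confidence interval from limma over 9 arrays) in the 3 comparisons, filled where the adjusted p over all genes is under 0.05. The filled points are Ahr in RORγt KO minus WT (0.66) and in SRG3 cKO minus RORγt KO (-0.95), and Tiparp is the member farthest above 0 in SRG3 cKO minus WT (0.55).

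Arnt, the partner that AhR shares with the hypoxia factor HIF-1α, was bright on every array and did not pass in any comparison. Its level was 9.96, 9.82 and 9.82 in SRG3 cKO arrays, 9.82, 9.93 and 9.82 in RORγt KO arrays, and 9.82, 9.70 and 9.74 in WT arrays. Both knockouts averaged slightly above WT, and each overlapped it. Its change was 0.12 on the log2 scale (interval -0.01 to 0.24) in SRG3 cKO and 0.11 (-0.01 to 0.23) in RORγt KO cells, and 0.01 (-0.11 to 0.13) between the 2 knockouts.

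Tiparp encodes a mono-ADP-ribosyltransferase that modifies AhR and limits its activity, and its transcription is itself induced by the receptor. Its level was 8.60, 8.23 and 8.37 in SRG3 cKO arrays, against 8.02, 7.67 and 7.87 in WT arrays. All 3 SRG3 cKO arrays were above all 3 WT arrays, but the arrays within each genotype also spread widely. The log2 change was 0.55 (SE 0.11, interval 0.29 to 0.80), which did not pass (limma adjusted p = 0.0926). Of the 7 members, 1 was higher and 1 lower without overlap in this comparison, Tiparp and Ahr, where 7.04% of all genes were higher and 6.56% lower without overlap.

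The spread of Tiparp followed the array numbers. SRG3 cKO exceeded WT by 0.58, 0.56 and 0.49 in arrays numbered 1, 2 and 3, an SD of 0.05, while the SD within each of these groups was 0.19 and 0.18. For SRG3 cKO and WT the deviations of same-numbered arrays from their group means correlated over all genes (r = 0.287, 0.186 and 0.116), so the fit with the number as a replicate block is given as well. With that block fitted to all 9 arrays Tiparp rose by 0.55 on the log2 scale in the SRG3 cKO (SE 0.04, limma adjusted p = 0.00233). This made 1 of 7 members called, and 195 genes were called in place of 116. The fit also blocks the RORγt KO arrays by number, although no such pairing was taken for them. The adjusted p was 0.0363 when the block was fitted without the RORγt KO arrays, where 32 genes were called. Without dim genes and without the block it was 0.043, and in the 9 fits that each left out 1 array it was between 0.0722 and 0.255.

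**Figure D3:**
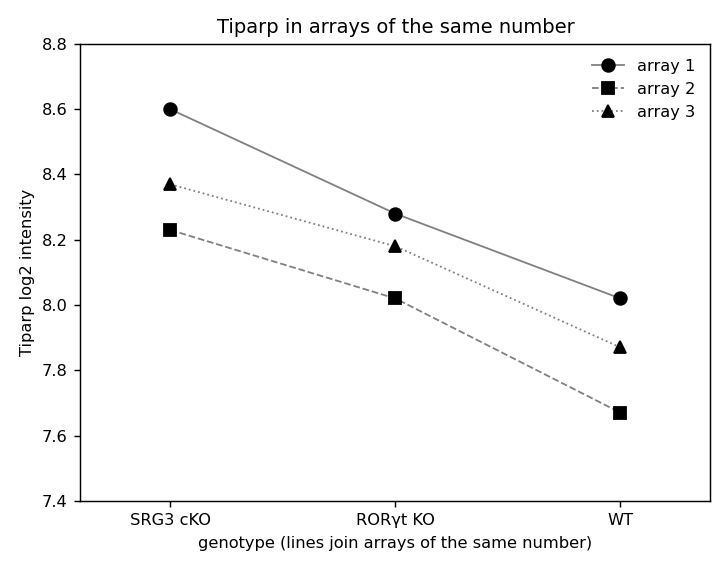
Tiparp log2 intensity (y axis) in the 9 arrays by genotype (x axis), with lines that join the arrays of the same replicate number. Each line starts at SRG3 cKO (8.60, 8.23 and 8.37) and runs downward to WT (8.02, 7.67 and 7.87).

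In RORγt KO arrays Tiparp was 8.28, 8.02 and 8.18, against 8.02, 7.67 and 7.87 in WT arrays. The lowest RORγt KO array equalled the highest WT array to within 0.00001, so the groups touched. In arrays of the same number RORγt KO exceeded WT by 0.26, 0.36 and 0.31, an SD of 0.05 as for SRG3 cKO. This log2 change was 0.31 (SE 0.11, interval 0.05 to 0.56, limma adjusted p = 0.302), and between SRG3 cKO and RORγt KO cells it was 0.24 (-0.02 to 0.49, limma adjusted p = 0.487). Neither passed without the replicate block. Thus, of the 2 members with the largest log2 changes, Ahr was lowest and Tiparp highest on average in SRG3 cKO cells. A second, dim probe set for Tiparp ranged only from 5.13 to 5.42 over the 9 arrays, and the mean of both gave a log2 change of 0.31 in SRG3 cKO against WT (limma adjusted p = 0.143).

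Ahrr encodes the AhR repressor, which resembles AhR, competes with it for ARNT and is induced by it in many tissues. Its level was 6.67 in all 3 SRG3 cKO arrays, 6.74, 6.67 and 6.67 in RORγt KO arrays, and 6.62, 6.67 and 6.69 in WT arrays. All 9 arrays thus lay within 0.12, below the median of all values (7.13). Its log2 change was 0.01 (interval -0.07 to 0.10) in SRG3 cKO and 0.03 (-0.05 to 0.12) in RORγt KO cells, and neither passed (limma adjusted p = 0.935 and 0.766).

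The deposited values repeat between arrays in a way that bears on such small spreads. Ahrr had the same value to within 0.00001 in 6 of 9 arrays, and Arnt and Nqo1 in 5 each. At least 2 arrays shared a value for 6 of the 7 members, all but Ahr, and for 56.1% of all genes. The SD of 0.00 for Ahrr in SRG3 cKO arrays stands for 3 such identical values.

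Cyp1a1 and Cyp1b1 encode monooxygenases that oxidize AhR ligands and are the usual readouts of receptor activity. Cyp1a1 was 7.25, 7.16 and 7.23 in SRG3 cKO arrays, 7.16, 6.98 and 7.09 in RORγt KO arrays, and 7.0, 7.34 and 7.29 in WT arrays. WT array 1 was below the other WT arrays, and the groups overlapped. The log2 change was 0.00 in SRG3 cKO (interval -0.19 to 0.19) and -0.13 in RORγt KO cells (-0.32 to 0.06). The Ahr change in RORγt KO cells (0.66) lies outside the second interval, but whether Cyp1a1 intensity should change as much as Ahr was not tested. Neither Cyp1a1 change passed (limma adjusted p = 0.993 and 0.571), and without WT array 1 the RORγt KO change was -0.24 (limma adjusted p = 0.0953).

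Cyp1b1 was 6.23, 6.23 and 6.28 in SRG3 cKO arrays, 6.0, 6.12 and 6.23 in RORγt KO arrays, and 6.20, 6.26 and 6.27 in WT arrays. The lowest values were in RORγt KO arrays 1 and 2, and array 3 lay among the WT values. The log2 change was 0.01 in SRG3 cKO (interval -0.12 to 0.13) and -0.12 in RORγt KO cells (-0.25 to 0.00), and 0.13 (0.00 to 0.26) for SRG3 cKO against RORγt KO. None of the 3 passed (limma adjusted p = 0.98, 0.399 and 0.431).

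Nqo1 encodes a quinone reductase induced by both AhR and the oxidative stress factor NRF2. Its level was 6.28, 6.37 and 6.20 in SRG3 cKO arrays, 6.38, 6.37 and 6.37 in RORγt KO arrays, and 6.37, 6.37 and 6.38 in WT arrays. SRG3 cKO arrays 1 and 3 were the lowest and array 2 stood with the rest. Its log2 change was -0.09 (interval -0.19 to 0.01, limma adjusted p = 0.505) in SRG3 cKO and 0.00 (-0.10 to 0.10) in RORγt KO cells. Ahrr, Cyp1b1 and Nqo1 were brighter than 31.9%, 21.1% and 23.9% of genes and Cyp1a1 than 46.4%. The background of the arrays was not measured here, so these changes are those of dim intensities.

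Over the 7 members the median log2 change was 0.01 in SRG3 cKO and 0.03 in RORγt KO cells against WT, where the medians of all genes were -0.01 and 0.00. The median size of the change was 0.09 and 0.12, against 0.05 for all genes in both comparisons.

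Beyond the members, 76 of 92 genes in 8 lists of the pathway were measured, and few passed. In SRG3 cKO against WT 1 was higher and 4 lower, in RORγt KO against WT 2 were higher and 6 lower, and in SRG3 cKO against RORγt KO 5 were higher and 1 lower. Among all genes the higher and lower shares were 0.28% and 0.243%, 0.694% and 0.343%, and 0.595% and 0.681% in these comparisons. Most of the calls were cytokine and receptor genes of Th17 cells. Of the 3 measured genes of the receptor's cytosolic complex 0 were called in each comparison. The HSP90 gene Hsp90aa1 was at -0.03 in SRG3 cKO and -0.06 in RORγt KO cells, Ptges3, which encodes the cochaperone p23, was at -0.09 and -0.07, and the kinase gene Src at -0.02 and -0.09.

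Among 13 measured bHLH-PAS relatives, 0 were called in SRG3 cKO against WT and 1 rose in RORγt KO cells. This was Hif1a, whose product also pairs with ARNT. It stood at 11.62, 11.64 and 11.56 in RORγt KO arrays, against 11.42, 11.28 and 11.35 in WT arrays (log2 change 0.26, SE 0.05, limma adjusted p = 0.0421). All RORγt KO arrays were above all WT arrays, as for Ahr, but the call was lost in each of the 9 fits without 1 array except the fit without WT array 1. The mean of all Hif1a probe sets gave 0.23, which did not pass (limma adjusted p = 0.12). Arntl, the clock gene for BMAL1, stood at 8.84, 8.99 and 8.92 in SRG3 cKO arrays, against 8.57, 8.67 and 8.48 in RORγt KO arrays. It was higher in SRG3 cKO than in RORγt KO cells (0.35, SE 0.07, limma adjusted p = 0.0395). Among the 9 fits without 1 array this call held only without WT array 1 and without WT array 2. Against WT, Arntl was at 0.02 in SRG3 cKO cells, where the groups overlapped (limma adjusted p = 0.931). In RORγt KO cells it was at -0.32 against WT, which did not pass (limma adjusted p = 0.059), with all RORγt KO arrays below all WT arrays. The difference between the knockouts thus lay mostly in the lower RORγt KO values. Arnt2 was at -0.03 in SRG3 cKO and -0.01 in RORγt KO cells, and Epas1, for HIF-2α, at 0.10 and 0.11. The clock genes Clock and Npas2 were at 0.12 and -0.12 in SRG3 cKO and at -0.06 and -0.29 in RORγt KO cells, and neither passed (limma adjusted p for Npas2 in RORγt KO = 0.226).

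Of the 10 measured coregulators 0 passed in any comparison, with log2 changes between -0.20 and 0.23. The steroid receptor coactivator genes Ncoa1, Ncoa2 and Ncoa3 were at 0.06, -0.02 and 0.23 in SRG3 cKO and at -0.07, -0.02 and 0.10 in RORγt KO cells. Ncoa7 was at -0.07 and 0.05. Smarca4, which encodes the Swi/Snf ATPase BRG1, a known coactivator of AhR, was at 0.00 in SRG3 cKO and -0.10 in RORγt KO cells. It was named after its values were seen.

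Of 7 measured further xenobiotic response genes 1 passed, Cyp1a2, the liver relative of Cyp1a1. It stood at 6.93, 6.98 and 7.09 in RORγt KO arrays, against 7.24, 7.24 and 7.21 in WT arrays. It fell by 0.23 on the log2 scale (SE 0.04, limma adjusted p = 0.04999), a dim probe set at the edge of the threshold, and the call held only without RORγt KO array 3 among the 9 fits without 1 array. In SRG3 cKO arrays it was 7.07 throughout, a log2 change of -0.16 against WT (limma adjusted p = 0.215). Aldh3a1, an aldehyde dehydrogenase gene, was at -0.08 in SRG3 cKO and -0.15 in RORγt KO cells. The genes for xanthine dehydrogenase, cyclooxygenase-2 and adseverin, Xdh, Ptgs2 and Scin, were at -0.04, 0.00 and -0.10 in SRG3 cKO and at 0.23, 0.07 and -0.10 in RORγt KO cells.

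None of the 12 measured NRF2 pathway genes passed in any comparison (0 called by limma). Keap1, the inhibitor of NRF2, was at 0.00 in SRG3 cKO and -0.01 in RORγt KO cells, and Hmox1, the haem oxygenase gene, at 0.07 and 0.10. Gclc and Gclm, for the subunits of the enzyme that starts glutathione synthesis, were at 0.01 and 0.08 in SRG3 cKO and at -0.14 and -0.03 in RORγt KO cells. Likewise 0 of 11 genes for the supply of ligands from tryptophan passed. Ido1, Tdo2 and Tph1, for enzymes that begin tryptophan breakdown or serotonin synthesis, were within 0.06 of 0 in both knockouts. Ido2, a relative of Ido1, was 6.91, 6.91 and 6.97 in SRG3 cKO arrays, 7.16, 6.99 and 7.06 in RORγt KO arrays, and 7.03, 7.03 and 7.12 in WT arrays. Its SRG3 cKO arrays lay below all others, with a log2 change of -0.13 against WT that did not pass (interval -0.24 to -0.02, limma adjusted p = 0.385), and in RORγt KO cells it was at 0.01.

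**Figure D4:**
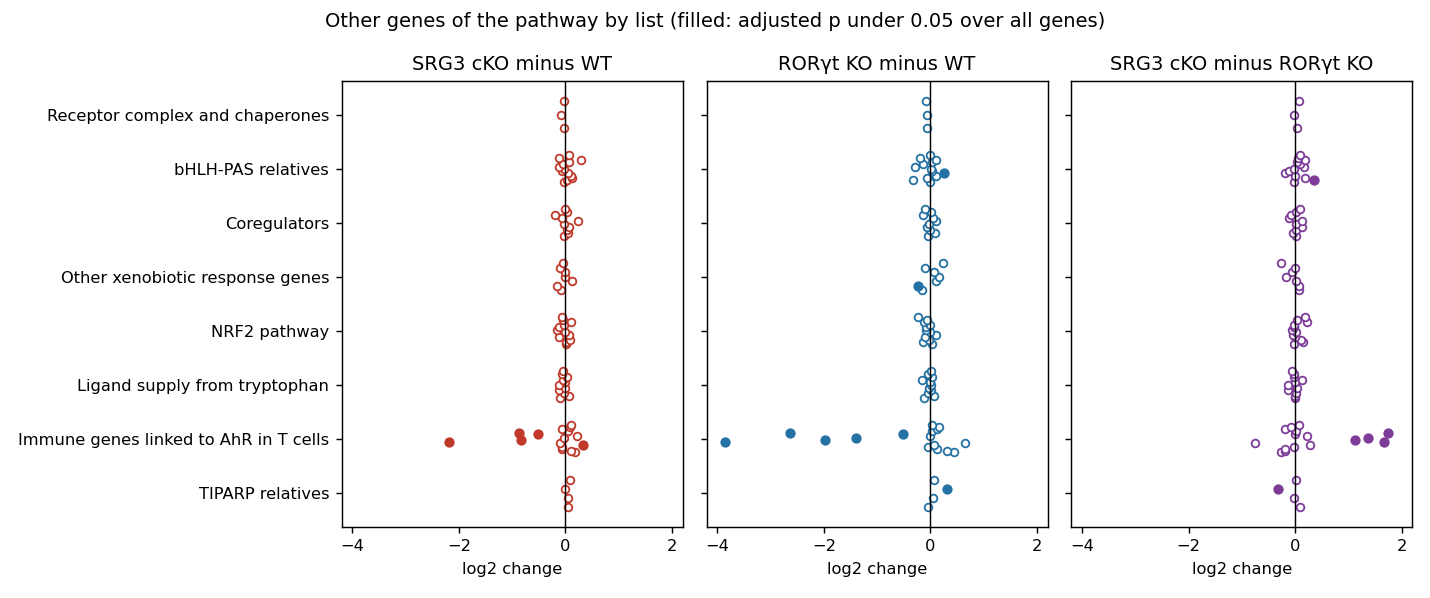
Log2 change (x axis) of each measured gene in the 8 pathway lists (rows) for the 3 comparisons, filled where the adjusted p over all genes is under 0.05. Most points lie near 0, and the far points in the row of immune genes are Il17a, Il17f, Il23r and Il1r1.

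The immune genes linked to AhR in T cells were the list with most calls, 1 higher and 4 lower of 16 in SRG3 cKO and 5 lower in RORγt KO cells against WT, and 4 higher in SRG3 cKO against RORγt KO. Il17a, Il17f and Il23r of this list are also among the Th17 markers described above. The list was chosen with earlier results of these data known, so these counts describe the list and do not test AhR. Il22, the cytokine gene most closely tied to AhR, stood at 3.27, 3.13 and 3.20 in SRG3 cKO arrays, at 3.15, 3.27 and 3.16 in RORγt KO arrays, and at 3.55, 3.83 and 3.73 in WT arrays. Both knockouts were below WT in every array. Il22 fell by 0.51 in each (SE 0.07, limma adjusted p = 0.0216 in SRG3 cKO and 0.0144 in RORγt KO). Between the 2 knockouts its log2 change was 0.00 (interval -0.16 to 0.16), where that of Ahr was -0.95. Only 0.207% of genes were dimmer than Il22, so its values are among the dimmest on the arrays. The call was lost without WT array 2 or 3 in both knockouts, without any SRG3 cKO array for SRG3 cKO, and without RORγt KO array 1 or 2 for RORγt KO.

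The other calls against WT were the falls of Il17a (-2.19 in SRG3 cKO and -3.85 in RORγt KO cells), Il17f (-0.84 and -1.97) and Il23r (-0.88 and -2.63), of Il1r1 in RORγt KO cells (-1.40), and the rise of Ikzf3 in SRG3 cKO cells (0.33). With the replicate block the SRG3 cKO calls of Il23r (adjusted p = 0.0552) and Ikzf3 (adjusted p = 0.0661) were lost. Of the SRG3 cKO calls only that of Il17a held without each single array. Those of Il17f and Il23r were lost in 8 and 7 of the 9 fits, and that of Ikzf3 in all 9. In RORγt KO cells Il17a, Il17f, Il23r and Il1r1 passed in all 9. The same 4 genes were higher in SRG3 cKO than in RORγt KO cells, Il17a by 1.67, Il17f by 1.12, Il23r by 1.75 and Il1r1 by 1.37 on the log2 scale (limma adjusted p = 0.00736, 0.0044, 0.000679 and 0.000165), also in all 9 fits.

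Il10, which AhR is known to promote in several T cell types, was 7.39, 6.83 and 7.17 in RORγt KO arrays, against 6.74, 6.18 and 6.53 in WT arrays. The RORγt KO arrays were all above the WT arrays. The log2 change of 0.65 (interval 0.28 to 1.02) did not pass without the replicate block (limma adjusted p = 0.127). In SRG3 cKO arrays Il10 was 6.54, 6.21 and 6.36, a change of -0.11 against WT. All were below the RORγt KO arrays, a log2 change of -0.76 (interval -1.13 to -0.40) that did not pass without the block either (limma adjusted p = 0.0687). Il21, a cytokine gene that Th17 cells use to amplify themselves, was at 0.22 in SRG3 cKO (limma adjusted p = 0.384) and 0.00 in RORγt KO cells. Entpd1, for the ecto-nucleotidase CD39, was at 0.44 in RORγt KO cells (limma adjusted p = 0.0586) and 0.17 in SRG3 cKO cells, and Maf was at 0.12 and -0.07.

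Of 4 measured relatives of Tiparp, Parp14 rose in RORγt KO cells, at 9.02, 9.17 and 9.07, against 8.70, 8.84 and 8.76 in WT arrays (log2 change 0.32, SE 0.05, limma adjusted p = 0.0312). SRG3 cKO arrays were at 8.82, 8.75 and 8.71, which was lower than RORγt KO (-0.33, limma adjusted p = 0.0206) and -0.01 against WT. The call against WT held only without SRG3 cKO array 1 among the 9 fits without 1 array. That against RORγt KO was lost without array 2 or 3 of either knockout. Parp1, Parp12 and Zc3hav1 did not pass in any comparison.

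Genes with a pattern like that of Ahr were sought by Pearson's r of log2 values over the 9 arrays, among 11089 genes brighter than the median gene. These values are a description, since all genes share the arrays and genotypes. The highest r were those of Il21r, the IL-21 receptor gene (0.978), Cdyl2, a chromodomain protein gene (0.971), and Acadm, for a mitochondrial fatty acid dehydrogenase (0.969). Il21r was 10.13, 10.16 and 10.03 in SRG3 cKO arrays, 10.54, 10.64 and 10.54 in RORγt KO arrays, and 10.15, 10.28 and 10.25 in WT arrays. Like Ahr it was highest in RORγt KO arrays, while SRG3 cKO and WT arrays lay close together. Il21r rose by 0.35 in RORγt KO cells against WT (limma adjusted p = 0.0202). Cdyl2 and Acadm were at 0.23 and 0.18 there and did not pass (limma adjusted p = 0.0891 and 0.101).

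The lowest r were those of Tspan6 (-0.970), a tetraspanin gene, Ckap2 (-0.969), for a spindle protein, and 1700017B05Rik (-0.954). Tspan6 was 9.04, 9.15 and 9.07 in RORγt KO arrays, against 9.79, 9.79 and 9.86 in WT arrays. It fell by 0.72 in RORγt KO cells (limma adjusted p = 0.000143), while SRG3 cKO arrays stood at 9.89, 9.98 and 10.01 (0.15 against WT, limma adjusted p = 0.266). In RORγt KO cells 1700017B05Rik fell by 0.35 (limma adjusted p = 0.0318). Ckap2 was at -0.11 there (limma adjusted p = 0.274) and was called in no comparison, so a strong r can go with a small change.

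**Figure D5:**
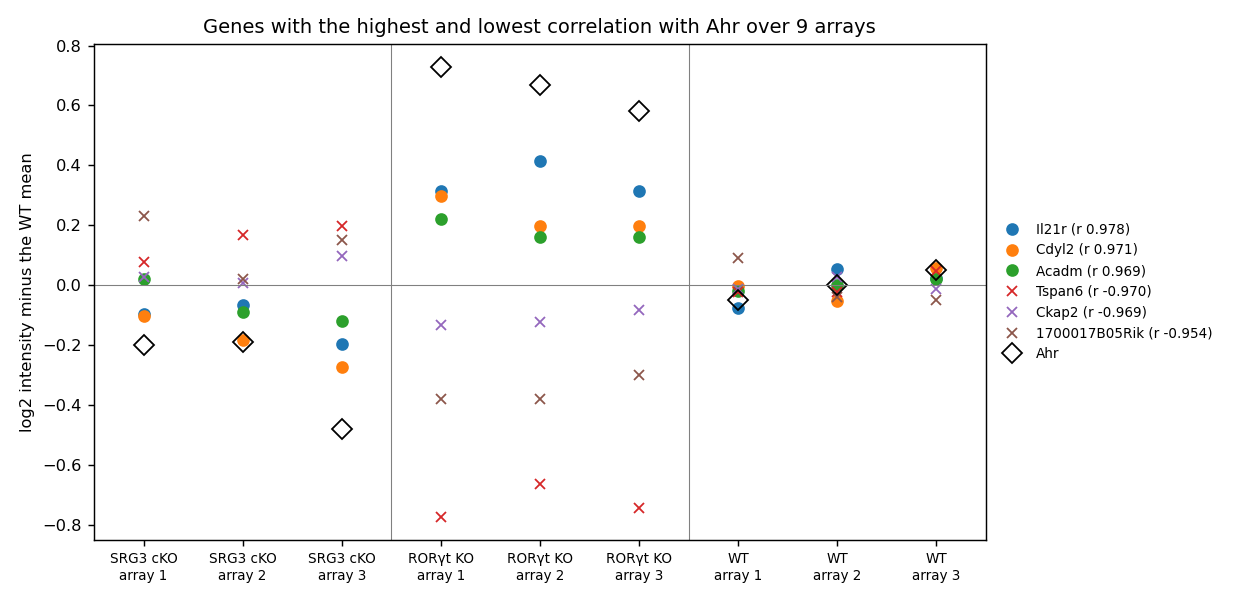
Log2 intensity minus the WT mean (y axis) in each of the 9 arrays (x axis) for Ahr, the 3 genes with the highest and the 3 with the lowest Pearson r with it. Ahr and the 3 genes of high r lie above WT in RORγt KO arrays, and Tspan6 and the other genes of low r lie below it there.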

How the data were processed

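The labels describe 9 total RNA samples, labelled with the GeneChip whole-transcript kit. The deposited values are log2 probe set intensities in the series matrix, and their background correction, summarization and normalization are not given in the sources used here. The platform annotation gave no symbol for 16010 of 41345 probe sets and several for 1814, and the 23521 with 1 symbol were used. Their symbols were brought up to date with RefSeq (GRCm38.p6) where the gene ID matched (23328), and the brightest probe set per gene was kept, giving 22180 genes. No sample column was left unused (0).

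The genotypes were tested in limma 3.58.1 (R 4.3.3) in 1 fit of all 9 arrays, with Benjamini-Hochberg adjustment over all genes per comparison and a threshold of 0.05. Rose, fell and called refer to that threshold, SE is that of the fit and intervals are 95%. Precision is limited by 3 arrays per genotype.

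The members, lists and tests were chosen with earlier results of these data known. Named genes were the members, Smarcc1, every list gene called in any comparison, up to 4 further genes per list in list order, and the 3 genes at each end of correlation with Ahr. Other genes are said to be chosen after their values were seen. Replicate numbers were taken to pair SRG3 cKO with WT arrays, since each same-number correlation exceeded 0.1 (0.287, 0.186 and 0.116), which the labels do not state. This cut was not set in advance. Arrays of different number correlated at -0.234 to 0.0772 for SRG3 cKO and WT. Some arrays of different number also exceeded the cut, RORγt KO array 3 with WT array 2 (0.131) and SRG3 cKO array 2 with RORγt KO array 3 (0.148). All these correlations come from the same arrays to which the block was then applied, so they are no independent evidence of pairing. No pairing was taken between RORγt KO and WT arrays (0.215, -0.00527 and 0.186) or between the knockouts (0.223, -0.00544 and 0.137). Alternatives were quantile normalization, median centring, a filter on dim genes, the mean of all probe sets, a variance trend, array weights, only the groups compared, a fold threshold of 1.5, the replicate block and the loss of each array in turn.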

Additional observations from a re-analysis of the deposited data

How the results depend on the processing

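Ahr kept its direction and its side of the threshold in all 3 comparisons under every alternative run, from 0.63 to 0.70 in RORγt KO against WT, from -1.0 to -0.85 in SRG3 cKO against RORγt KO, and from -0.34 to -0.19, never past the threshold, in SRG3 cKO against WT. With the replicate block its adjusted p was 0.00706, 0.00116 and 0.129 in the same order. The block brought Tiparp past the threshold in all 3 comparisons (adjusted p = 0.00233 in SRG3 cKO against WT, 0.0157 in RORγt KO against WT and 0.0357 in SRG3 cKO against RORγt KO), so that 1, 2 and 2 members were called. Of all 22180 genes the block fit called 195, 374 and 368 in these comparisons, against 116, 230 and 283 without it. It changed the call of no other member, and in RORγt KO against WT it brought Il10 and Entpd1 past the threshold (adjusted p = 0.00236 and 0.00763), Arntl too (0.0157), while Cyp1a2 was lost (0.059). In SRG3 cKO against RORγt KO it brought Il10, Entpd1 and Il21 past it (adjusted p = 0.000993, 0.0441 and 0.0377). In SRG3 cKO against WT 1 member, Tiparp, was also called without dim genes and with the block fitted without the RORγt KO arrays, an alternative chosen after seeing the data. Leaving out 1 array gave 0 to 0, 1 to 1 and 1 to 1 members called in SRG3 cKO against WT, RORγt KO against WT and SRG3 cKO against RORγt KO.

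Over all genes SRG3 cKO against WT gave 116 calls. It gave 207 without dim genes (11405 genes tested), 195 with the replicate block, 13 with only the 2 groups compared, 32 with the block and without the RORγt KO arrays, 28 at a fold of at least 1.5, and 18 to 87 without single arrays. RORγt KO against WT gave 230 calls, with 375 without dim genes, 374 with the block, 43 with only these groups, 64 at a fold of at least 1.5 and 45 to 322 without single arrays. SRG3 cKO against RORγt KO gave 283, with 142 when only these groups were fitted, 79 at a fold of at least 1.5 and 138 to 261 without single arrays. The causes of these differences between fits were not tested. Members not past the threshold changed sign in some fits (Cyp1a1 in 7 of 17 in SRG3 cKO against WT, Arnt in 5 of 17 in SRG3 cKO against RORγt KO), so no direction is claimed for them. Background signal was not measured, which limits what the dim Ahrr, Cyp1a1, Cyp1b1 and Nqo1 probe sets can show.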

Other observations

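Within each genotype, Il10 and Tiparp were brightest in array 1 and dimmest in array 2. For Il10 the values of arrays 1, 2 and 3 were 6.54, 6.21 and 6.36 in SRG3 cKO, 7.39, 6.83 and 7.17 in RORγt KO, and 6.74, 6.18 and 6.53 in WT. For Tiparp they were 8.60, 8.23 and 8.37 in SRG3 cKO, 8.28, 8.02 and 8.18 in RORγt KO, and 8.02, 7.67 and 7.87 in WT. The order was not particular to these genes. Per1, Slc3a2 and Il21 from the pathway lists had it in each genotype too, and were named after their values were seen. How many genes share it was not counted. The labels do not say what arrays of 1 number share.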
